A study of Mus musculus with 16 samples.

Results

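The m6A peak landscape of mouse liver was compared between a high-fat diet with betaine (HB) and the high-fat diet alone (HF). All 94005 deposited peaks of the 4 m6A libraries were used, 2 libraries per diet, out of 94005 m6A peaks in the series. No peak was chosen by its value. The livers came from male C57BL/6 mice that started their diet at 8 weeks of age, ate it for 8 weeks and were 16 weeks old at sampling. Both groups ate the high-fat diet, so betaine, a methyl donor that hands a methyl group to homocysteine, was the 1 labelled difference between the diets. The series holds 16 samples in all: mRNA, ribosome-bound mRNA, m6A and m6A input libraries of each diet. The labels do not say whether the replicate libraries came from separate animals, so the spread between them may be technical, and every p-value measures only that spread.

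N6-methyladenosine (m6A) is a methyl group on the N6 position of adenosine inside RNA. A writer complex with the catalytic subunit Mettl3 and the partners Mettl14 and Wtap places it, the demethylases Fto and Alkbh5 remove it, and YTH-domain proteins bind it and affect the splicing, translation and decay of the RNA. In mRNA the mark is known to be concentrated around stop codons and in 3′ UTRs. Near the 5′ end a related base, m6Am, can follow the cap, and the usual m6A antibodies bind it too. In MeRIP the RNA is fragmented and pulled down with such an antibody, and a peak is a place where the pulled-down fragments pile up above the local background.

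Peak number, median length, deposited pileup, enrichment and peaks per gene overlapped between the diets. Peaks at transcription starts, a measure chosen after the positions of the peaks had been seen, did not. Nor did some other measures given below, among them the reads at the summit and the shares of summits in protein-coding spans and outside gene spans. Peaks with their summit in the first 200 bases after an annotated start made up 1.51% and 1.56% of the peaks in the HF libraries but 1.04% and 0.939% in the HB libraries. The starts below are those of the genes with the strongest such peaks, by the libraries that held them. Their summits lay 40 to 192 bases after the start, so the sequences show the starts and not the summits. Each sequence is the first 30 bases from the start, taken from RefSeq (GRCm38.p6, the mm10 build), and the capital marks the first base, where the cap sits.
Fabp1: Aggcagagctgttgtggtcagctgtggaaa
Ugt2b36: Cactctgaagagaagaacattgattttcag
Atp5g3: Aagagccgcaccgcgcttgcgcgcccagcc
Adh5: Gcacagcccctcccctcacgcacggtccag
Ivd: Agtccaagctcctggtgcaccgcagagatg
Rnpc3: Ggaaactatcttccgctcagcctcggtgac
Tmsb4x: Atcacctcatttgcatagaagcacacataa
Slco1b2: Gttagacatgccacacttgttgtagaagcc

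Fabp1, Ugt2b36, Atp5g3 and Adh5 had a start peak in both HF libraries and in no HB library. Ivd and Rnpc3 had one in both HB libraries and in no HF library, and Tmsb4x and Slco1b2 had one in all 4. The stretches lie at chr6:71199879-71199908 on the plus strand (Fabp1), chr5:87092526-87092555 on the minus strand (Ugt2b36), chr2:73911297-73911326 on the minus strand (Atp5g3) and chr3:138443093-138443122 on the plus strand (Adh5). Ivd lies at chr2:118861994-118862023 on the plus strand and Rnpc3 at chr3:113630120-113630149 on the minus strand. Tmsb4x lies at chrX:167209189-167209218 on the minus strand and Slco1b2 at chr6:141629518-141629547 on the plus strand.

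The number of summits in that window was 321 and 364 in the HF libraries and 221 and 233 in the HB libraries. The HB libraries were both lower, and the diets did not overlap in number or in share. The 95% Wilson intervals of the shares were 1.35 to 1.68% and 1.41 to 1.73% in HF, against 0.91 to 1.18% and 0.826 to 1.07% in HB. These intervals cover counting error only. With 2 libraries against 2, a two-sided exact permutation test cannot give a p below 0.333, and the start share gave that p of 0.333. In the 200 bases before a start the libraries held 71 and 79 summits in HF and 71 and 63 in HB, and these overlapped. Windows of 100 and of 500 bases after the start gave the same order without overlap: 0.314% and 0.3% in HF against 0.268% and 0.181% in HB for the shorter window, and 2.64% and 2.76% against 2.09% and 1.71% for the longer. With peaks of at least 10-fold enrichment the difference was -0.501 percentage points, and with equal peak numbers in every library -0.551, beside -0.547 with all peaks.

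**Figure D1:**
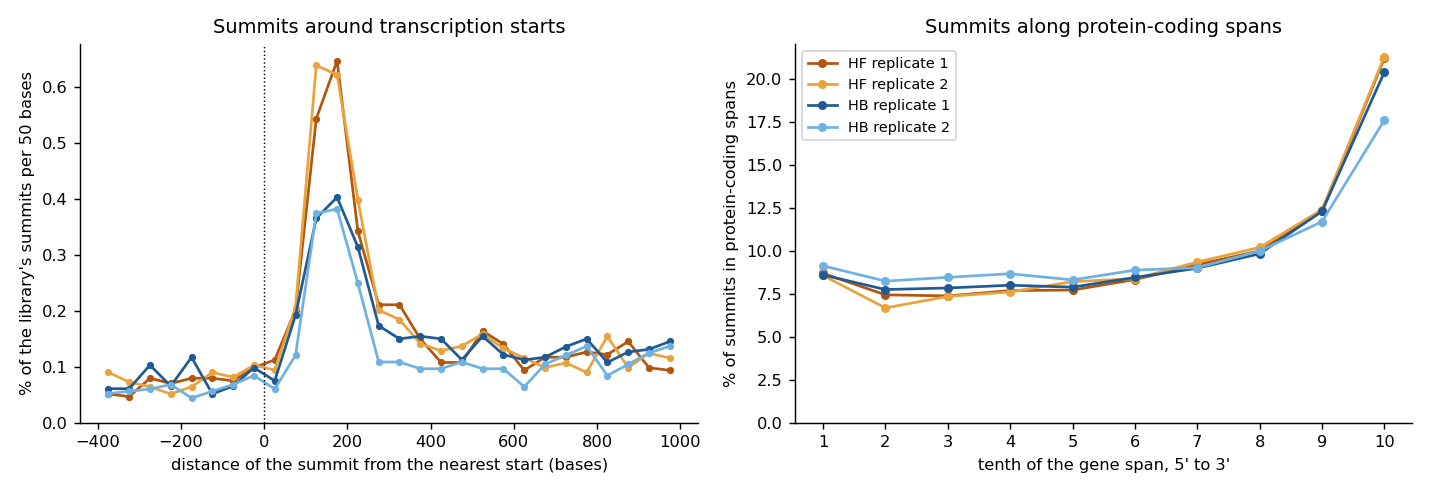
Left: percent of each library's summits per 50 bases, by distance from the nearest annotated start (negative values lie before it). Right: percent of summits in protein-coding gene spans in steps of 10% of its length, 5′ to 3′. Each line is 1 library. Both HF lines stand above both HB lines in the 100 to 200 bases after the start, and all 4 lines are highest in the last 10%, at 17.6 to 21.3%.

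In all, 934 genes had a start peak in at least 1 library. Of these, 37 had it in both HF libraries and in neither HB library (3.96%), and 8 had it in both HB libraries and in neither HF library (0.857%). It was present in all 4 libraries in 9 genes. Of the 37, 25 had another peak elsewhere in the gene in at least 1 HB library. The deposited lists stop at a 6-fold enrichment over the local background, so a peak that is not listed may still be present at a lower enrichment. In 18 of the 37 genes both HF peaks were under 10-fold. The median enrichment of start peaks was 8.65 and 9.55-fold in HF and 10.2 and 8.22-fold in HB, and the median number of reads at their summits was 83.0 and 78.5 in HF and 70.0 and 42.0 in HB. Over all peaks, too, the summits held fewer reads in both HB libraries (medians of 70 and 68 in HF and 63 and 40 in HB), and the part of this in the start peaks was not tested.

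Fabp1, the liver fatty acid binding protein that carries fatty acids inside hepatocytes, had the strongest of these peaks. Its pileup, the signal at the summit, was 6528 and 5503 in the HF libraries, with the summit 134 bases after the start in both. No start peak was listed for it in the HB libraries. The enrichment in HF was 7.22 and 6.76-fold, close to the lower limit of the lists. The deposited mRNA level of Fabp1 was 11800 and 10900 RPKM in HF and 14500 and 18400 RPKM in HB, with both HB values above both HF values. A second peak lay elsewhere in the gene: Fabp1 had 2 peaks in each HF library and 1 in each HB library.

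Ugt2b36, a glucuronosyltransferase of drug and steroid conjugation, had start pileups of 1445 and 1347 in HF and no peak anywhere in the gene in HB. Atp5g3, which encodes subunit c of the mitochondrial ATP synthase, had 717.5 and 665.7 in HF, while its mRNA was 186 and 287 RPKM in HF and 626 and 671 RPKM in HB. Adh5, the glutathione-dependent formaldehyde dehydrogenase, had 515.1 and 554.1 in HF, with an mRNA level of 109 and 113 RPKM in HF and 297 and 253 RPKM in HB. For both genes the HF libraries, with the peak, held the lower mRNA level. The enrichment of these start peaks in HF was 7.79 and 7.17-fold (Atp5g3) and 7.48 and 9.57-fold (Adh5), where the lists stop at 6-fold. Zfp36, an RNA-binding protein that promotes decay of AU-rich mRNAs, had start pileups of 141.5 and 207.8 in HF and none in HB, and its mRNA was higher in HF (145 and 113 RPKM against 53.4 and 62.2 RPKM).

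Among the 37 genes, mRNA was higher in both HB libraries in 14 and lower in both in 13, and their median log2 difference was 0.01, beside -0.14 over all genes with a start peak. The m6A input libraries were not analysed here, and the part of the mRNA level in these peaks was not tested.

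The start pileups of the 8 genes with a start peak in HB alone ran from 12.43 to 332.8, within the range of 10.52 to 6528 in the 37 genes above. Ivd, isovaleryl-CoA dehydrogenase of leucine breakdown, stood highest, with 332.8 and 296.5 in the HB libraries and no peak anywhere in the gene in HF, at an mRNA level of 132 and 86.2 RPKM in HF and 95.3 and 96.3 RPKM in HB. Rnpc3, a protein of the minor spliceosome, had 109.5 and 73.97 in HB. Dhcr7, the last enzyme of cholesterol synthesis, had 14.21 and 28.4 in HB, with mRNA at 10.7 and 7.78 RPKM in HF and 32.6 and 24.4 RPKM in HB.

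Of the 9 genes with a start peak in every library, Slco1b2, a hepatic uptake transporter of organic anions, had pileups of 1087 and 682.7 in HF and 849.1 and 817.6 in HB, which overlapped. Tmsb4x, the actin-binding thymosin beta 4, had 960.1 and 425.6 in HF and 1105 and 982.1 in HB. Sult2a8, a liver sulfotransferase, had 409.6 and 338.5 in HF and 1142 and 868.5 in HB. In Tmsb4x and Sult2a8 both HB values lay above both HF values. The mRNA of Tmsb4x was lower in both HB libraries (167 and 224 RPKM in HF, 137 and 131 RPKM in HB). That of Sult2a8 overlapped (221 and 296 RPKM in HF, 260 and 145 RPKM in HB). Mybbp1a, a nucleolar protein, had 192.2 and 214.0 in HF and 83.48 and 83.87 in HB. Its mRNA was also lower in HB, at 35.9 and 30.7 RPKM in HF and 14.2 and 13.3 RPKM in HB.

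The base composition of the starts with a peak was alike in the 4 libraries. The first base was A in 34.3% and 32.1% of them in HF and in 32.1% and 32.2% in HB, against 34.4% of all 32851 starts. The core of the m6A motif, GGAC, read on the transcript's strand in the first 50 bases, was in 21.8% and 20.9% in HF and 21.3% and 20.6% in HB, against 18.9% of all starts. Its reverse complement GTCC was in 19% and 17.6% in HF and 20.4% and 21.9% in HB, against 17.4%. The 2 motifs can share no base, and a match is a description of the letters only. Of the start summits, 24 and 22 in HF and 16 and 15 in HB lay in these 50 bases, so most lay beyond the stretch read. No start of chromosome 18 was used here, so its peaks are left out of the start shares.

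The number of peaks did not separate the diets. HF replicate 1 held 22060 peaks, HF replicate 2 held 24141, HB replicate 1 held 22086 and HB replicate 2 held 25718, so the means were 23101 ± 1471 in HF and 23902 ± 2568 in HB (SD, n = 2; exact permutation p = 0.667, two-sided). The replicates differed by more than the diets did. The difference of 801.5 peaks turned to -239 without HF replicate 1 and to -1010 without HB replicate 2.

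Median peak length was 230 and 224 bases in HF and 215 and 225 bases in HB, which overlapped (exact permutation p = 0.667). The shortest peak had 200 bases in every library, and 33.6% and 40.0% of the HF peaks and 43.9% and 35.3% of the HB peaks had that length. The longest had 3441 and 2403 bases in HF and 4076 and 5954 bases in HB. Together the peaks covered 6.63 and 6.89 Mb in HF and 6.14 and 7.52 Mb in HB. Median fold enrichment was 8.77 and 10.04 in HF and 10.84 and 8.82 in HB. In enrichment and in the share of the shortest peaks HF replicate 1 stood next to HB replicate 2, and HF replicate 2 next to HB replicate 1.

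**Figure D2:**
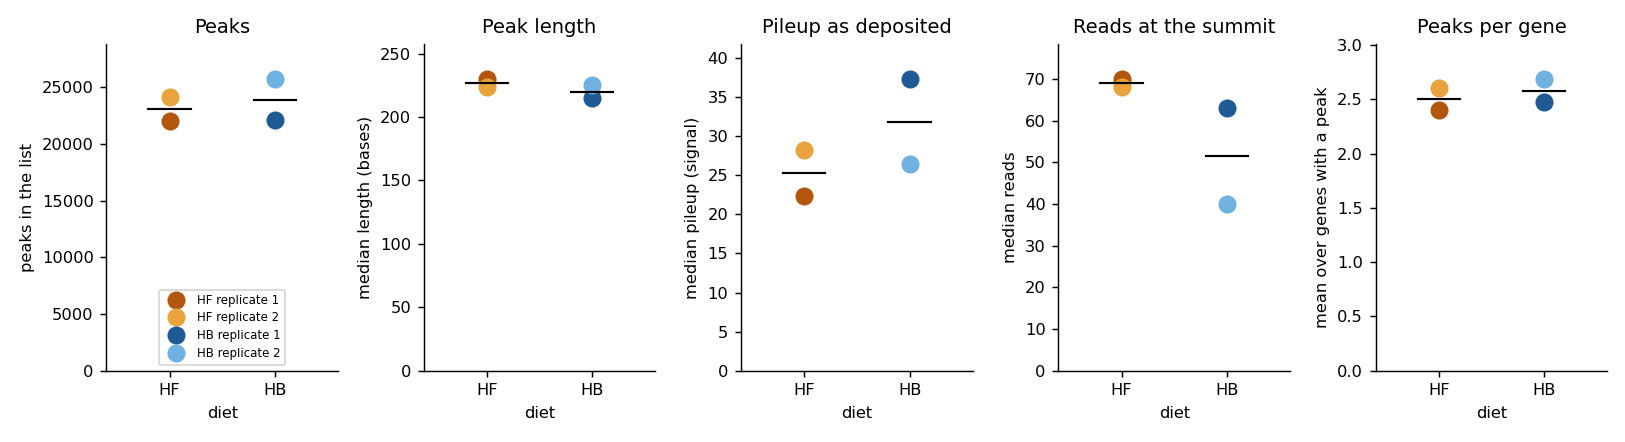
Peaks per library, median peak length (bases), median pileup as deposited (signal), median reads at the summit and mean peaks per gene with a peak, by diet. Points are libraries and bars are means of 2. The diets overlap in every panel except the reads at the summit, where the HF libraries stand at 70 and 68 and the HB libraries at 63 and 40.

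The median pileup was 22.3 and 28.2 in HF and 37.3 and 26.4 in HB (exact permutation p = 0.667). The order turned on another scale. In each library the pileups were close to whole multiples of 1 step, taken here as the value of 1 read. The step was 0.319 and 0.415 in HF and 0.592 and 0.660 in HB. In 99.0 to 99.8% of peaks the pileup was a whole number of steps, within 0.1 of a step. Divided by the step, the median peak held 70 and 68 reads at its summit in HF and 63 and 40 in HB, without overlap (exact permutation p = 0.333, the smallest this design allows). The mean of the median pileups was 6.61 higher in HB. Leaving out HB replicate 1 gave 1.17 and leaving out HB replicate 2 gave 12, and HB replicate 2 lay below HF replicate 2. Reads at the summit were added after the values had been seen.

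The strongest peaks lay in plasma protein and apolipoprotein genes in all 4 libraries. Serpina3k, a serine protease inhibitor secreted by hepatocytes, held the highest pileup in HF replicate 1 (52075), HF replicate 2 (73017) and HB replicate 1 (57257). In HB replicate 2 its pileup was 23892, and Apoa1, the main protein of HDL, held the highest at 36190.2. Apoa1 had 38519.8 and 42262 in HF and 29864 in HB replicate 1. Fga, the fibrinogen alpha chain, had 39018 and 52188 in HF and 29399 and 29357 in HB, both HB values below both HF values. Apoa5, a regulator of plasma triglycerides, had 22163 and 25099 in HF and 36235 and 34829.7 in HB, in the opposite order.

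Most summits fell in protein-coding gene spans: 90.8% and 91.9% in HF and 90.2% and 89.2% in HB. Summits outside any annotated span made up 5.66% and 5.01% in HF and 6.10% and 6.99% in HB, and those in a lncRNA span only 2.93% and 2.60% in HF and 3.07% and 3.14% in HB. In these 3 classes the diets did not overlap, with HB lower in the first and higher in the others (exact permutation p = 0.333 each). Spans include introns. The last 10% of protein-coding spans held 21.2% and 21.3% of summits in HF and 20.4% and 17.6% in HB (exact permutation p = 0.333), and HB replicate 2 stood lowest. That difference of -2.27 percentage points was -0.863 without HB replicate 2 and -3.67 without HB replicate 1, and the difference of 1.21 outside spans was 0.764 without HB replicate 2. In the last 1000 bases the shares were 7.61% and 8.01% in HF and 7.63% and 6.23% in HB, which overlapped. In every library the last 10% held the most summits of all steps of 10%, more than the first 10% (8.69% and 8.57% in HF, 8.60% and 9.13% in HB).

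A peak was found in 9316 and 9494 genes in HF and in 9039 and 9561 genes in HB (exact permutation p = 1.00). Over these genes the mean was 2.41 and 2.60 peaks per gene in HF and 2.47 and 2.69 in HB. At least 5 peaks were found in 12% and 13.6% of them in HF and in 12.2% and 15.0% in HB. In the 4 libraries together 14343 genes had a peak, 4942 of them in every library and 3883 in 1 library only. The share of genes with a peak depended on the mRNA level: it was 3.8 to 5.23% in genes under 0.1 RPKM, 69.5 to 72.4% in genes of 1 to 10 RPKM and 20.1 to 27.6% in genes over 100 RPKM.

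The genes with the most peaks were long. Dpyd, the first enzyme of pyrimidine breakdown, had 52 and 81 peaks in HF against 73 and 85 in HB. Zbtb20, a transcriptional repressor in hepatocytes, had 50 and 67 in HF and 51 and 37 in HB. Immp2l, a mitochondrial inner membrane peptidase, had 30 and 51 in HF and 40 and 45 in HB, and Gphn, gephyrin, which also makes the molybdenum cofactor, had 31 and 33 in HF and 33 and 39 in HB. Plcb1, a phospholipase C, had 30 and 36 in HF and 23 and 31 in HB. In all but Gphn the diets overlapped, and in Gphn HB replicate 1 tied with HF replicate 2. The median span was 353 kb for the 100 genes with the most peaks and 24.4 kb for all genes with a peak.

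Both HB libraries had more peaks than both HF libraries in 1135 of 14343 genes (7.91%), and fewer in 1166 (8.13%). The 2 directions were nearly even. Erbb4, an EGF-receptor family kinase, had 11 and 7 peaks in HF against 21 and 23 in HB, in a span of 1080 kb and with mRNA of 0.11 to 0.287 RPKM. Cpq, a plasma carboxypeptidase, had 9 and 8 in HF and 21 and 17 in HB. Tnrc6b, a partner of Argonaute in miRNA silencing, had 5 and 8 in HF and 15 and 15 in HB. Elp4 (6 and 5 against 17 and 14), Nf1 (9 and 3 against 14 and 15), Dym (3 and 4 against 9 and 14), Sugct (19 and 17 against 25 and 27) and Tcf12 (5 and 3 against 7 and 16) also stood higher in HB.

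Fto, the m6A demethylase, was among the 8 genes with the largest difference toward fewer peaks: it had 10 and 19 in HF and 8 and 6 in HB, while its mRNA was 3.49 and 3.8 RPKM in HF and 8.30 and 5.81 RPKM in HB. Il15ra, the interleukin-15 receptor alpha chain, had 6 and 8 peaks in HF and 0 in both HB libraries, and its mRNA was 78.9 and 71.3 RPKM in HF and 16.0 and 20.2 RPKM in HB. Pum3, an RNA-binding protein of the nucleolus, had 8 and 9 in HF and 1 and 2 in HB, at 9.77 and 6.85 RPKM in HF and 7.08 and 5.79 RPKM in HB. Psd3 (22 and 25 against 12 and 19), Colec12 (20 and 16 against 8 and 13), Ralgapa2 (19 and 14 against 6 and 13) and Cdh4 (5 and 11 against 0 and 2) stood lower in HB. In these bulk samples fewer cells of a type and less RNA per cell cannot be told apart, and nor can fewer RNA molecules and less m6A per molecule.

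**Figure D3:**
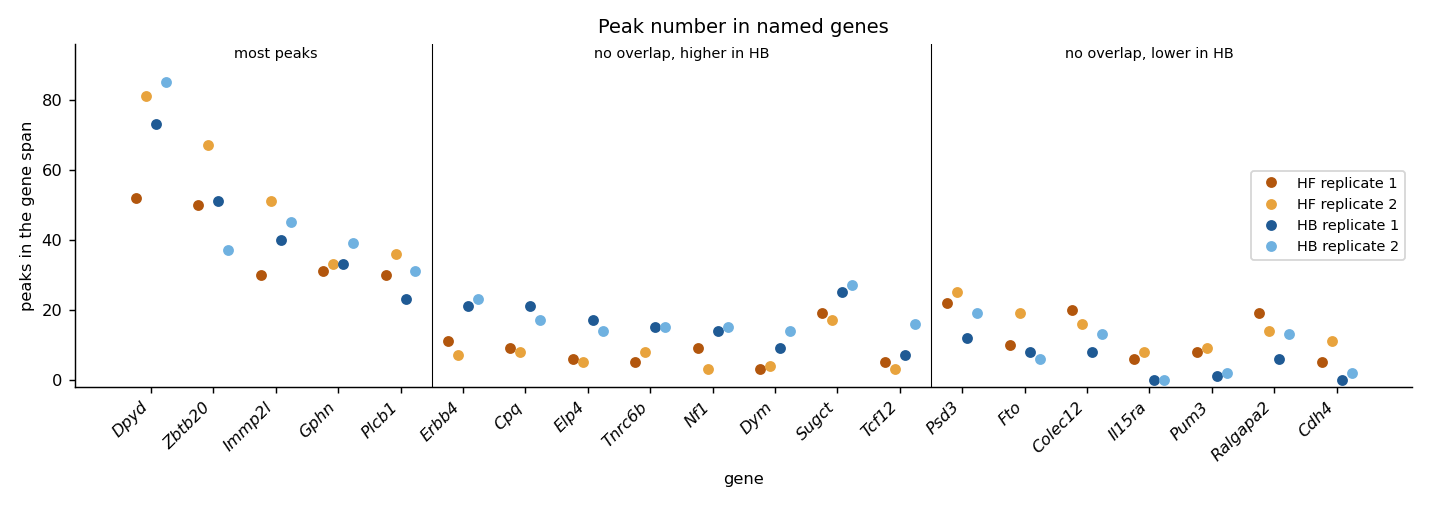
Peaks in the gene span in each library for the 5 genes with the most peaks and for genes in each direction with the largest differences between diets among genes whose values do not overlap. Points are libraries. The genes with the most peaks overlap or tie between diets, while Erbb4 stands at 21 and 23 in HB against 11 and 7 in HF.

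By chromosome, the share of peaks differed little. Chromosome 2 held the most, 7.85% and 8.23% in HF and 7.97% and 8.16% in HB, and chromosome Y the fewest, 17 to 23 peaks. Of 21 chromosomes, 3 held a larger share in both HB libraries (14.3%) and 5 a smaller one (23.8%). Chromosome 13 held 4.5% and 4.27% in HF and 4.60% and 4.61% in HB, which is 5.06% more relative to HF. Chromosome 9 held 5.18% and 5.27% in HF and 5.44% and 5.45% in HB, and chromosome 4 held 6.30% and 6.03% in HF and 6.34% and 6.33% in HB. Chromosome X held 2.65% and 2.49% in HF and 2.44% and 2.41% in HB, and chromosomes 11, 15, 16 and 17 were also lower. Each of these 8 gave an exact permutation p of 0.333 (0.875 after Benjamini-Hochberg adjustment over 21 chromosomes). The mean difference of shares was 0.165 percentage points between the HF libraries, 0.113 between the HB libraries and 0.114 to 0.169 between libraries of different diets. Per protein-coding gene, and averaged over the libraries, chromosome 12 held 1.61 peaks and chromosome 18 held 1.6, while chromosome 7 held 0.683, chromosome X 0.607 and chromosome Y 0.0762.

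**Figure D4:**
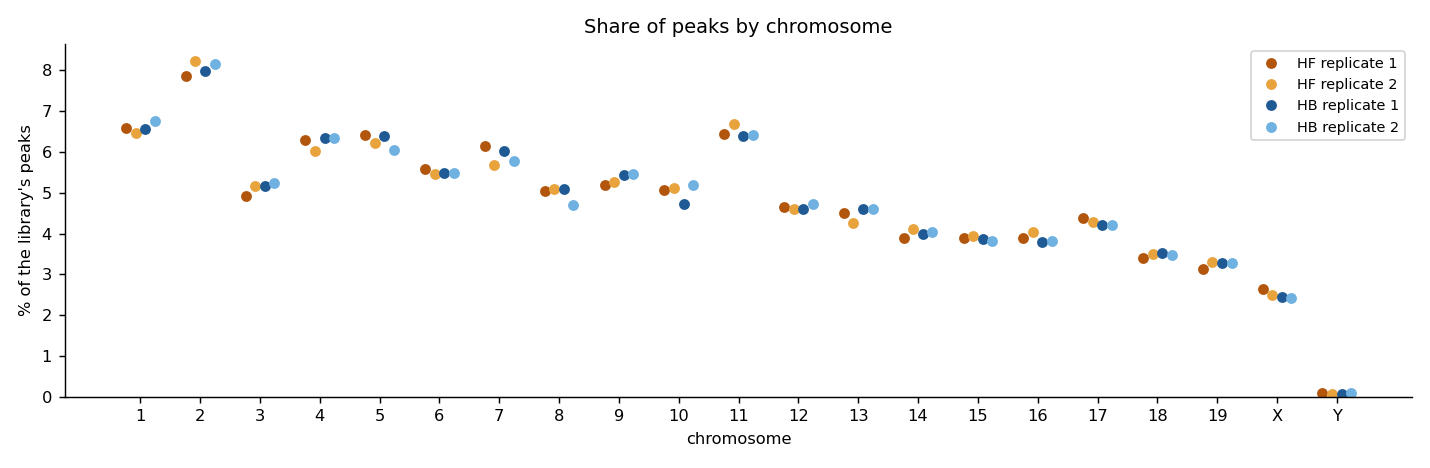
Percent of each library's peaks on chromosomes 1 to 19, X and Y. Points are libraries. The 4 points of a chromosome lie close together, from about 0.08% on chromosome Y to 8.23% on chromosome 2.

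Pileup per gene was compared as the highest pileup of a gene's peaks, in the 4942 genes with a peak in every library, on a log2 scale centred on each library's median. At an adjusted p under 0.05 in limma (Benjamini-Hochberg), 3 genes were lower in HB and 0 higher (0.0607% called). At an unadjusted p under 0.05, 285 were lower and 227 higher. The libraries of 1 diet differed by an SD of 1.00 (HF) and 1.05 (HB) on the log2 scale over these genes, and libraries of different diets by 1.09 to 1.17. Only in 18.6% of the genes did the highest summits of the 4 libraries lie within 200 bases of each other, so in most genes different peaks were compared.

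That held for the 3 called genes. Acsl1, the acyl-CoA synthetase that activates long-chain fatty acids, had highest pileups of 5043 and 3892 in HF and 588.5 and 302.5 in HB (log2 change -3.61 ± 0.39 SE, adjusted p = 0.00389 in limma). In HF that peak lay 1462 and 1442 bases from the 3′ end of the span, with an enrichment of 7.09 and 6.26-fold, near the lower limit of the lists. In HB it was not listed, and the highest peak lay 53409 and 53418 bases from the 3′ end, where HF also had one: 509.4 and 1064 in HF and 588.5 and 302.5 in HB. At this shared place the diets overlapped. The deposited mRNA level was 574 and 322 RPKM in HF and 309 and 278 RPKM in HB.

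Pi4ka, a phosphatidylinositol 4-kinase, had 1673 and 1247 in HF and 20.72 and 56.14 in HB (log2 change -5.62 ± 0.61, adjusted p = 0.00389 in limma). Its HF peaks were 7.28 and 6.03-fold enriched, and no HB peak lay at that place. The HF peaks also lay in the span of Serpind1, the plasma protein heparin cofactor II, which sits inside the Pi4ka span on the other strand and had mRNA of 89.1 and 122 RPKM in HF and 187 and 132 RPKM in HB, so they cannot be assigned to 1 of the 2 genes. With only the summits that lay in exactly 1 gene span, the change of Pi4ka was -0.02 (adjusted p = 0.995 in limma) and its call was lost, while Acsl1 and Rpl36al were still called. Rpl36al, a ribosomal protein, had 1657 and 1895 in HF and 118.4 and 207.4 in HB (-3.72 ± 0.46, adjusted p = 0.00889 in limma). Its HF peak lay 286 and 269 bases from the 3′ end and was not listed in HB, while a peak by the start was listed in all 4, at 299.6 and 284.1 in HF and 118.4 and 207.4 in HB. Without the mean-variance trend limma called 0 genes lower and 0 higher.

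Atf6, a sensor of endoplasmic reticulum stress, followed with 532.6 and 667.8 in HF and 88.81 and 30.38 in HB (-3.74, adjusted p = 0.059 in limma), and 3110082I17Rik with 380.6 and 286.6 in HF and 28.42 and 30.38 in HB (-3.71, adjusted p = 0.0602 in limma). The smallest p among genes with a higher pileup in HB belonged to Bcl2l13, a mitochondrial BCL2-like protein, with 19.13 and 10.37 in HF and 198.4 and 556.7 in HB (4.34, adjusted p = 0.0894 in limma). Maea (3.22), Gbe1, the glycogen branching enzyme (3.30), Gphn (2.60) and Aagab (3.20) came next, with adjusted p of 0.1 to 0.125 in limma. In these genes the highest summits of the 4 libraries were 15085 to 111332 bases apart.

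Of 918 genes whose highest summits lay within 200 bases of each other, 59 were lower in HB (6.43%) and 34 higher (3.7%) at an adjusted p under 0.05 in limma, adjusted over the 918. This restriction was added after the values had been seen, and its calls rest on the model. Without the mean-variance trend 0 were called lower and 0 higher, with the fold enrichment in place of the pileup 0 and 0, and without HF replicate 2 also 0 and 0. At 1 place the libraries of 1 diet were closer, with an SD of 0.68 (HF) and 0.708 (HB), against 0.807 to 0.976 between diets. The genes given below were chosen after their values were seen, unless a list had named them, and none passed the threshold in the fit of all 4942 genes.

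Among the genes called lower, Chd9, a chromatin remodeller, had 7453 and 24191 in HF and 1129.7 and 3184 in HB (-3.05 ± 0.40, adjusted p = 1.85e-05 in limma). Irf2bp2, a transcriptional corepressor, had 1935 and 3859 in HF and 294.9 and 704.0 in HB (-2.81 ± 0.38, adjusted p = 1.85e-05 in limma). Cebpb, a liver transcription factor of the acute phase, had 6715 and 9291 in HF and 3492 and 3741 in HB (-1.35 ± 0.28, adjusted p = 0.00413 in limma). The mRNA of all 3 was also lower in both HB libraries: 5.21 and 6.41 RPKM in HF against 2.39 and 2.66 RPKM in HB for Chd9, 45.7 and 35.8 against 12.9 and 17.8 RPKM for Irf2bp2, and 414 and 328 against 148 and 247 RPKM for Cebpb.

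Crp, C-reactive protein of the acute phase, went the other way in its mRNA. Its pileup was 11004 and 13253 in HF and 5860.4 and 6133 in HB (-1.24 ± 0.27, adjusted p = 0.00514 in limma), while the mRNA was 47.8 and 50.4 RPKM in HF and 148 and 107 RPKM in HB. Fga had -0.84 ± 0.25 (adjusted p = 0.0327 in limma) and an mRNA level of 329 and 260 RPKM in HF and 813 and 406 RPKM in HB. In Hspa1b, an inducible HSP70 chaperone, the pileup was 540.0 and 645.8 in HF and 206.6 and 75.95 in HB (-2.46 ± 0.46, adjusted p = 0.00197 in limma), and the mRNA 8.33 and 18.2 RPKM in HF and 44.0 and 39.9 RPKM in HB; Hspa1b has a near-identical copy, Hspa1a, so its reads are uncertain. In these 3 genes both HB pileups lay below, and both HB mRNA levels above, the HF values.

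Gadd45g, a stress-induced growth arrest gene, had 1230.4 and 2793 in HF and 576.1 and 238.4 in HB (-2.55 ± 0.42, adjusted p = 0.000393 in limma), with mRNA of 684 and 272 RPKM in HF and 108 and 209 RPKM in HB. Rps19, of the small ribosomal subunit, had 676.4 and 1056 in HF and 228.0 and 274.1 in HB (-1.98 ± 0.38, adjusted p = 0.00204 in limma), with overlapping mRNA levels of 344 and 372 RPKM in HF and 263 and 460 RPKM in HB. Foxo3, a transcription factor that insulin signalling keeps out of the nucleus, had -1.15 ± 0.35 (adjusted p = 0.0353 in limma), and Ncoa2, a nuclear receptor coactivator, had -1.17 ± 0.38 (adjusted p = 0.0492 in limma).

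On the higher side, Son, a splicing factor of nuclear speckles, had 1147 and 677.3 in HF and 2684.5 and 3110.0 in HB (1.49 ± 0.33, adjusted p = 0.00546 in limma), with mRNA of 35.8 and 32.8 RPKM in HF and 14.5 and 10.4 RPKM in HB. Rnase4, a secreted ribonuclease, had 5694 and 8306 in HF and 20259.9 and 15596 in HB (1.14 ± 0.28, adjusted p = 0.0116 in limma), with mRNA of 340 and 408 RPKM in HF and 430 and 428 RPKM in HB. Slc10a1, the hepatocyte uptake carrier of bile acids, had 2235 and 2550 in HF and 4765 and 5186 in HB (0.83 ± 0.29), and its adjusted p of 0.062 in limma did not pass. Apoa1 (-0.52, adjusted p = 0.195 in limma) and Apoa5 (0.37, adjusted p = 0.426 in limma) did not pass either.

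**Figure D5:**
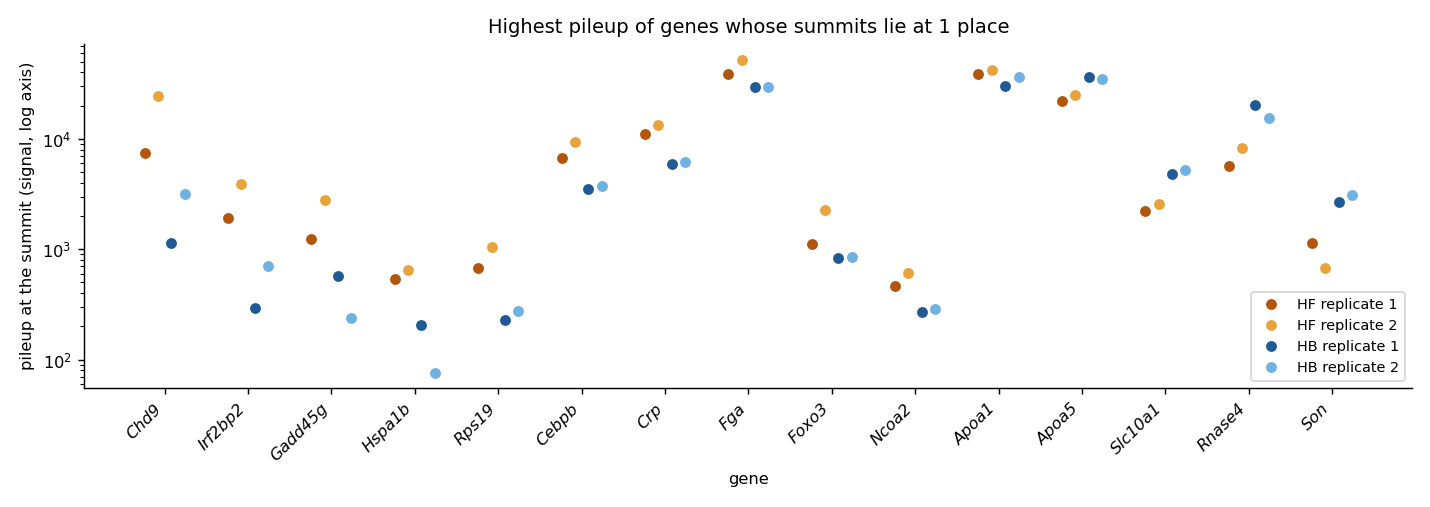
Highest pileup (signal, log axis) in each library for 15 genes whose highest summits lie within 200 bases of each other. Points are libraries. From Chd9 to Ncoa2 both HB points lie below both HF points, Apoa1 also stands lower in HB, and from Apoa5 to Son both HB points lie above.

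Across genes the change in pileup hardly followed the change in mRNA: Pearson's r was 0.0462 over 4598 genes and 0.0891 over the 856 genes with summits at 1 place and an mRNA value. Genes are not independent replicates, and the mRNA and m6A libraries were separate. Of the 59 lower genes, 55 had an mRNA value and 37 of these were lower in mRNA too, at a median log2 difference of -0.230, against -0.235 for all 856. Of the 34 higher genes, 14 of 30 with an mRNA value were higher, at a median of -0.095. Set against the median of the 856 instead of 0, 18 of these 30 and 29 of the 55 lay above it.

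In the groups of genes written from general knowledge, 0 members of the 19 lists passed the threshold in the fit of all 4942 genes, where 0.0607% were called, and the median log2 change over all genes was 0.06. Of the 9 m6A writers 6 were tested and none was called (median 0.43). Wtap had 2 and 2 peaks in HF against 5 and 3 in HB, and Mettl3, the catalytic subunit, 0 in both HF libraries and 2 and 1 in HB. Of the 13 readers 4 were tested (median -0.86), and of the 2 erasers Fto alone (-0.13). Mettl14 had no peak, and Alkbh5 had 1 in HB replicate 2 only.

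Genes of betaine and one-carbon metabolism had peaks in 21 of 33 members (33 and 30 of the HF peaks, 35 and 39 of the HB peaks), and 7 were tested (median 0.29). Bhmt, which uses betaine to methylate homocysteine, and Gnmt, which consumes the methyl donor S-adenosylmethionine, had no peak in any library, at 741 to 1760 RPKM and 342 to 1790 RPKM. Mthfd1l, a mitochondrial folate enzyme, had 1 and 2 peaks in HF against 3 and 10 in HB, and Mtr, methionine synthase, 1 and 0 in HF and 5 and 3 in HB. In peak number 2 of the 21 members with a peak were higher in HB without overlap and 3 lower, beside 7.91% and 8.13% of all genes with a peak.

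In fatty acid and triglyceride synthesis 4 of 25 members were tested, and all 4 had a positive change (median 1.78), beside a median mRNA difference of 1.30. Over all 4942 tested genes, 2617 had a positive change. In these 4 members the highest summits of the 4 libraries were 71429 to 254747 bases apart, so different peaks were compared. Peak number was lower in HB without overlap in 4 of the 17 members with a peak and higher in 2. Over all genes with a peak these shares were 8.13% and 7.91%. Me1, malic enzyme, which supplies NADPH, had pileups of 11.48 and 12.86 in HF and 51.51 and 154.5 in HB and mRNA of 15.0 and 11.3 RPKM in HF and 135 and 44.8 RPKM in HB. Elovl6, a fatty acid elongase, had 169.6 and 20.74 in HF and 418.6 and 256.9 in HB. Fasn, the fatty acid synthase, and Srebf1, its regulator, had no peak in any library. None of the 4 was called, and 2 passed an unadjusted p under 0.05 in limma (the background is 4.59%). In this list the median pileup and mRNA differences had the same sign. So they had in other lists, such as the m6A readers (-0.86 in pileup, -0.77 in mRNA), cytochrome P450 families (1.48 and 0.754) and fatty acid oxidation (0.60 and 0.315). They had opposite signs in lists such as the m6A writers (0.43 and -0.42) and the betaine and one-carbon genes (0.29 and -0.0685). The same held for the lipid sensing regulators (0.15 and -0.57) and the bile acid genes (0.60 and -0.18). Over all tested genes the medians were 0.06 and -0.32, and the one-carbon and bile acid mRNA medians lay above that -0.32. The part of the mRNA was not tested.

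Among the other metabolic lists, 12 of 21 cholesterol synthesis genes had a peak (6 and 6 peaks in HF, 10 and 2 in HB) and none was tested. The medians were 0.15 in lipid sensing regulators (14 tested), 0.60 in fatty acid oxidation (3), 0.05 in apolipoproteins and VLDL assembly (5), 0.60 in bile acid genes (8), 1.48 in cytochrome P450 families 1 to 3 (4) and -0.27 in insulin signalling and gluconeogenesis (17). The P450 value rests partly on Cyp2c38 and Cyp2c39, whose spans share 1 peak (114.1 and 73.83 in HF, 426.9 and 501.9 in HB). Eci1, a mitochondrial enoyl-CoA isomerase of fatty acid oxidation, had no peak in HF and pileups of 987.0 and 1335 in HB, with mRNA of 135 and 151 RPKM in HF and 243 and 311 RPKM in HB. Angptl8, an insulin-induced inhibitor of lipoprotein lipase, had the reverse: 115.7 and 195.8 in HF and no peak in HB, with mRNA of 154 and 143 RPKM in HF and 39.5 and 39.0 RPKM in HB.

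In immediate-early and stress genes the HF libraries had 32 and 34 peaks, the HB libraries 23 and 25. Of 10 tested, 8 had a lower pileup in HB (median -0.68), beside 2325 of all 4942 tested genes. At an unadjusted p under 0.05 in limma 4 were lower, beside 5.77% of all genes. Peak number was lower in HB without overlap in 4 of the 32 members with a peak and higher in 0, beside 8.13% and 7.91% of all genes with a peak. Fos had 2 and 1 peaks in HF and 0 in both HB libraries, at an mRNA level of 1.68 and 1.74 RPKM in HF and 0.869 and 1.03 RPKM in HB. Egr1 had 1 and 1 in HF and 0 in both HB libraries, at 10.1 and 1.65 RPKM in HF and 1.07 and 1.89 RPKM in HB.

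In ribosomal protein genes the HF libraries had 16 and 19 peaks, the HB libraries 13 and 8, and 20 of 83 had a peak. Rps25 (596.7 and 653.7) and Rpl18 (354.8 and 270.4) had a peak in both HF libraries and in no HB library. Their enrichment in HF was 11.1 and 14.2-fold (Rps25) and 6.09 and 6.96-fold (Rpl18), the latter near the lower limit of the lists. Peak number was lower in HB without overlap in 3 of the 20 and higher in 0, beside 8.13% and 7.91% of all genes with a peak. The 7 tested genes had a median of -0.44. In translation factors the HF libraries had 38 and 42 peaks, the HB libraries 35 and 32. The change was negative in 6 of 7 tested genes (median -0.15), beside 2325 of all 4942. Plasma proteins (9 tested) had a median of -0.02, the circadian clock (11) -0.21 and the respiratory chain (4) 0.29.

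Zfp genes, which encode zinc finger proteins and were matched by the start of their symbol, were the largest list. The HF libraries had 508 and 546 peaks in them, the HB libraries 565 and 608, so both HB libraries held more. Of 311 members with a peak, 38 had more peaks in both HB libraries and 15 had fewer, beside 7.91% and 8.13% of all genes. Of 172 tested, 120 had a positive change (median 0.26), beside 2617 of all 4942 tested genes (median 0.06). The median mRNA difference of the tested Zfp genes was -0.84, against -0.32 over all tested genes. Zfp12 had 2 and 1 peaks in HF against 4 and 5 in HB, and Zfp963 had 0 in both HF libraries and 3 in both HB libraries, with mRNA of 5.88 and 2.62 RPKM in HF and 1.65 and 1.86 RPKM in HB. Members of this family share sequence, and reads could be split between near-identical copies.

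The mRNA libraries showed the tissue as labelled: all 8 hepatocyte markers stood at or above 1 RPKM in all 4, with summed levels of 48000 and 50200 RPKM in HF and 56300 and 55500 RPKM in HB, which did not overlap. Summed levels were 112 to 140 RPKM for Kupffer cell markers and 57.0 to 69.4 RPKM for endothelial markers, overlapping between diets. Red blood cell markers summed to 260 and 216 RPKM in HF and 408 and 1050 RPKM in HB, and neutrophil markers to 10.6 and 57.6 RPKM in HF and 4.36 and 5.24 RPKM in HB, both without overlap. Cholangiocyte markers (26.2 and 31.9 RPKM in HF, 15.7 and 26.0 RPKM in HB) and T and B cell markers (2.03 and 3.65 RPKM in HF, 1.51 and 1.70 RPKM in HB) were lower in HB, also without overlap. The cholangiocyte sums nearly met, at 26.2 and 26.0 RPKM. Few of these markers stood at or above 1 RPKM in all 4 libraries: 2 of 5 for neutrophils, 1 of 5 for cholangiocytes and 0 of 5 for T and B cells, against 4 of 4 for red blood cells. The part of these cells in the peak differences was not tested.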

How the data were processed

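The authors' deposited peak lists of 4 m6A libraries were used, 2 per diet. Per the labels' protocols, Trimmomatic 0.36 removed adaptors and TopHat 2.0.13 did the genomic alignment. MACS2 2.1.0.20151222 and the mm10 build are named in the submitters' processing notes, with other tools and no order. Per the file headers, each peak has a start, an end, a length, a pileup signal at the summit, a fold enrichment (a ratio) and 2 further columns whose headers are damaged. From their values and place these were taken as the −log10 of the deposited p-value and q-value. Peaks were called per library. The lists held only peaks of at least 6-fold enrichment, and the peak numbers in their names reach 36166 to 50576, so 50.9 to 61.4% of the numbered peaks were listed. The deposited mRNA tables give a read count per gene (11437462 to 22492813 reads per library) and RPKM, the authors' count scaled by transcript length and library reads. The read depth of the m6A libraries is not given in the sources used here.

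Summits were placed in RefSeq gene spans (GRCm38.p6, 49997 genes) and set against 32851 starts. A summit in several spans counted for each. Values per library were compared with two-sided exact permutation tests. Pileup per gene was fitted with limma 3.58.1 in R 4.3.3 (trend, median-centred log2, no pseudocount, Benjamini-Hochberg threshold 0.05) and tested on data simulated with limma's own estimate of the spread. Those data share the assumption of the fit. It recovered 50 of 100 genes with a log2 change of 2 and 99 of 100 with a change of 4, and called 18 unchanged genes. With the libraries' within-diet SDs as the spread it recovered 0 and 21 of 100, and called 0 unchanged genes. Its power depends on that choice, so few calls do not show that few genes changed. mRNA differences are on the log2(RPKM + 0.1) scale.

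No exon or stop codon annotation was used here, and no genome sequence other than that around starts. The planned shares by UTR and coding region, the summit motif and the restriction to exons were therefore not run, and the position along gene spans was used in their place. Alternatives were leaving out each library, stricter peak thresholds, equal peak numbers, other placements and other scalings. Named genes were the 10 largest called changes in each direction, filled up to 5 by the smallest p, the 8 largest differences in peak number without overlap in each direction, the 5 genes with the most peaks, up to 3 members by pileup and 2 by peak number of each of 19 lists, and genes of m6A and betaine metabolism. The text gives those that matter, and a gene that the rule names is not reported here. The comparisons and lists were chosen with earlier results of these data known. No per-sample column outside the labels was present.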

Additional observations from a re-analysis of the deposited data

How the results depend on the processing

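A limit of 5 on the −log10 of the q-value removed no peak, as the lowest values were 5.24 to 6.58. Restriction to chromosomes 1 to 19, X and Y removed none either, and the replicate block could not move a difference per library. These 3 alternatives therefore could not change the results per library. Under the others run, the shares near starts, in the last 10% of spans, in protein-coding spans and outside spans kept their direction, but not their size. With 1 library left out they ranged from -0.596 to -0.497 (starts), -3.67 to -0.863 (last 10%), -2.16 to -1.09 (protein-coding) and 0.764 to 1.65 percentage points (outside). The median pileup ranged from 1.17 to 12. Leave-one-out values of the difference HB minus HF ranged as follows: peak number from -1010 to 2620, median fold enrichment from -0.586 to 1.44, genes with a peak from -366 to 156, peaks per gene from -0.0324 to 0.184, and the percent of genes with 5 or more from -0.587 to 2.21. Genes with a peak also turned, to 18, with peaks of at least 10-fold, and the median pileup turned to -17.5 as reads at the summit. Chromosomes without overlap numbered 4 to 8 higher and 6 to 9 lower with 1 library left out, and 3 lower both with peaks of at least 10-fold and with equal peak numbers. Genes whose peak number did not overlap were 738 higher and 677 lower at 10-fold, and 2105 to 3688 higher and 2144 to 3479 lower with 1 library left out, where 2 libraries against 1 overlap less often by construction. Pileup calls lower and higher were 0 and 3 with fold enrichment, 5 and 0 with sums, 3 and 1 with quantile normalization, 3 and 3 at 10-fold, 0 and 0 without the trend, and 6 to 79 and 3 to 10 with 1 library left out. They were 59 and 34 for summits at 1 place. With the replicate block they were 88 and 35, but the libraries share only a number. The deviations of same-numbered libraries had a correlation of -0.028 over 4942 genes. For the values per library, the mean within-number difference equals the difference of the diet means by construction, so its direction could not change. At 1 place the calls lower and higher were 7 and 7 without centring, 14 and 7 with quantile normalization, 0 and 0 without the trend or with fold enrichment, 41 and 15 with the replicate block, and 0 to 9 and 0 to 3 with 1 library left out. For these counts the cause was not tested. Named genes that turned did so with fold enrichment (Acsl1 2.55, Pi4ka 1.36, Maea -0.48, Aagab -0.94, and Apoa5 -0.21, or -0.00 at 1 place, and Apoa1 0.11 at 1 place) or with quantile normalization (Apoa1 0.31). The call of Pi4ka was lost with summits in exactly 1 gene span (-0.02). Restriction to exons was not run.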
